A study of Rattus norvegicus with 16 samples.

Results

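Scn7a, Atp1b2, Kcna1, Kcnj10 and Aqp4 are 5 genes for ion and water transport that are often used to describe glia, and they are followed here across 4 cell populations sorted from cultures of rat olfactory mucosa. The genes were taken by symbol from the array files, where 8 probes carry their names, out of 20572 genes measured well enough to be tested. They were selected on their levels in these samples, with those levels known, so the levels are described and not tested. Of the 5, Scn7a and Atp1b2 were high, and both in the p75 cells alone among the 4 populations. Kcna1, Kcnj10 and Aqp4 lay near the background of the arrays in every population, so the p75 cells did not carry the 5 genes as a set.

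Scn7a encodes Nax, a relative of the voltage-gated sodium channels that responds to the sodium level around the cell and is known from Schwann cells and other glia. Atp1b2 encodes the β2 subunit of the sodium pump, also known as the adhesion molecule on glia, which brings the catalytic α subunit to the membrane. Kcnj10 encodes Kir4.1, the inward rectifier through which astrocytes take up potassium. Kcna1 encodes Kv1.1, a delayed rectifier best known from axons beside the node of Ranvier. Aqp4 encodes the water channel of astrocyte endfeet, held there by the dystrophin and dystroglycan complex. Olfactory ensheathing cells, the glia of the olfactory nerve, are usually recognised in culture by the neurotrophin receptor p75.

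The cells came from male Fischer rats, of an age not given in the sources used here, and were sorted by flow cytometry to high purity. Each population had 4 biological replicates, 1 array each, which makes 16 arrays. The CD90 cells are named for the surface glycoprotein of Thy1, the p75 cells for the receptor of Ngfr, and these and the TRKA cells shared a culture protocol. The fourth population, TRKA-TGF, consisted of TRKA cells whose cultures had been induced with TGF-a. The labels name no transgene, deletion or separate control group, and do not say whether the replicates came from separate animals or cultures, so the spread may be partly technical. All cells had been in culture, and RNA was amplified by PCR before labelling.

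Levels are log2 of the processed signal minus the upper quartile (75th percentile) of that array, so that 0 is a bright probe and about -8 is the floor. A probe counts as above background where the scanner software called it well above background. Arrays of p75 and TRKA cells shared slide 1, and arrays of TRKA-TGF and CD90 cells slide 2. Differences of p75 from CD90 or TRKA-TGF, and of TRKA-TGF from TRKA, therefore cannot be told apart from the slide, and within a slide the populations lay in different rows. The TRKA arrays had 54.5% ± 2.60 (SD, n = 4) of spots above background, against group means of 68.4% to 71.3% in the others.

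The populations were set against marker genes. All 10 markers of ensheathing and Schwann glia, among them Sox10, Ngfr, S100b, Erbb3, Fabp7, Foxd3, Cdh19 and Npy, were above background on all 4 p75 arrays, with a summed level of 6.31 to 6.55. The summed level of these markers was 1.16 to 1.43 in TRKA-TGF, -0.11 to 0.32 in CD90 and -1.56 to 0.06 in TRKA cells. Ngfr was 3.16 ± 0.24 (SD, n = 4) in p75 cells and above background on no TRKA array. It was also above background on all 4 TRKA-TGF arrays, at -0.37 ± 0.72, and on 2 CD90 arrays. All 8 myeloid markers were above background on every TRKA array, with a summed level of 8.25 to 8.70 against 7.26 to 7.33 in TRKA-TGF, 3.74 to 4.38 in CD90 and 1.34 to 2.52 in p75 cells. Fibroblast markers were highest in CD90 cells, at 8.85 to 9.04, but 6 of 8 were also above background on all p75 arrays, at 7.61 to 7.73. Of 6 astrocyte markers, 4 were above background on all arrays of p75 cells and 4 on all of CD90 cells, 3 on all TRKA arrays and 2 on all TRKA-TGF arrays, and Gjb6 was so on none of the 16. Their summed level was 4.33 to 4.59 in p75 cells and 0.25 to 3.83 in the others, and Fgfr3 and Slc1a2 were not highest in p75 cells.

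The probes of 4 of the genes are shown because they fix which transcript stretch each level refers to. Each is 60 bases, 5′ to 3′ as given in the array files, with rn4 positions.
Scn7a, chr3:48634739-48634798: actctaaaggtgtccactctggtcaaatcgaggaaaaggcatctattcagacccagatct
Kcna1, chr4:163012003-163012062: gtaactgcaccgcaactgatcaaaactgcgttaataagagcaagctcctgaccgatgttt
Kcnj10, chr13:88370332-88370391: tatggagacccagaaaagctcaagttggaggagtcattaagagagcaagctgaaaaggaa
Aqp4, chr18:6630285-6630344: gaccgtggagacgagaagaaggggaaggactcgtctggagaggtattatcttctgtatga
The probe of Atp1b2 lies at chr10:56418392-56418451. A second Scn7a probe lies at chr3:48633684-48633743, and 2 more Aqp4 probes at chr18:6629662-6629721 and chr18:6626431-6626490.

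Scn7a gave a strong signal in p75 cells and none above background elsewhere. Its level in the 4 p75 replicates was 5.08, 4.96, 5.06 and 5.14, from processed signals of 46368, 42382, 41349 and 44962. It was -8.29, -7.10, -8.33 and -8.20 in CD90, -7.91, -6.76, -7.47 and -6.67 in TRKA and -7.72, -7.22, -7.67 and -8.32 in TRKA-TGF cells. None of those 12 arrays was above background, and the p75 arrays lay far above all of them with no overlap. Groups also did not overlap for 18.9% of all genes in p75 against CD90, 31.5% against TRKA and 28.8% against TRKA-TGF, and 0.185% of all genes were above background on the 4 p75 arrays and on no other, shares from which nothing is read since the choice of Scn7a used these arrays. The mean level was 5.06 ± 0.08 (SD, n = 4) in p75 cells.

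As measured, the p75 level of Scn7a exceeded CD90 by 13.04 (SE 0.30), TRKA by 12.26 (SE 0.30) and TRKA-TGF by 12.79 (SE 0.23) on the log2 scale. Because the dim side has only a bound, these amount to at least 3733-fold over CD90, at least 2361-fold over TRKA and at least 2813-fold over TRKA-TGF. Such a bound sets the bright group's mean against the higher of the probe's own signal and the lowest signal called above background on each dim array. It is approximate. With normexp background correction, which lifts the floor, the measured differences were 9.18, 8.66 and 9.16.

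The second Scn7a probe, printed in 10 spots per array, gave the same pattern. Its level was 2.98 to 3.33 in the 4 p75 replicates, and it was above background on no other array, where it ranged from -8.54 to -7.35. The spots of 1 p75 array differed by a coefficient of variation of 2.05 to 2.62%. The bounds from this probe were at least 1007-fold over CD90, 637-fold over TRKA and 759-fold over TRKA-TGF. The size of the bound thus depended on the probe, and its direction did not.

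Atp1b2 was likewise high in p75 cells, and unlike Scn7a it left a faint signal elsewhere. Its level in the p75 replicates was 2.50, 2.19, 2.44 and 1.97, from processed signals of 7723, 6205, 6716 and 4988. The CD90 replicates read -5.93, -6.47, -6.18 and -6.65, and only the third was above background. The TRKA replicates read -7.20, -6.93, -6.12 and -7.88, none above background. The TRKA-TGF replicates read -6.58, -5.17, -4.97 and -5.05, and all but the first were above background, at signals of 26.5, 30.4 and 32.9. The p75 arrays again lay above the other 12 with no overlap.

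As measured, the p75 mean of Atp1b2, 2.27 ± 0.24 (SD, n = 4), exceeded CD90 by 8.58 (SE 0.20), TRKA by 9.31 (SE 0.38) and TRKA-TGF by 7.72 (SE 0.40) on the log2 scale. With no TRKA array above background, the TRKA difference is a bound of at least 342-fold, and with 1 of 4 CD90 arrays above background the CD90 difference rests mostly on signals at the floor. Between the 2 dim TRKA populations the measured difference, TRKA-TGF minus TRKA, was 1.59 (SE 0.53), and their ranges overlapped. That difference was 0.51 after quantile normalization and -0.07 with normexp background correction, so its direction was not settled. Scn7a and Atp1b2 were the 2 of the 5 genes whose p75 arrays lay above all others. Over all genes tested, 3.05% had that pattern, and the choice of the 5 genes used it.

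**Figure D1:**
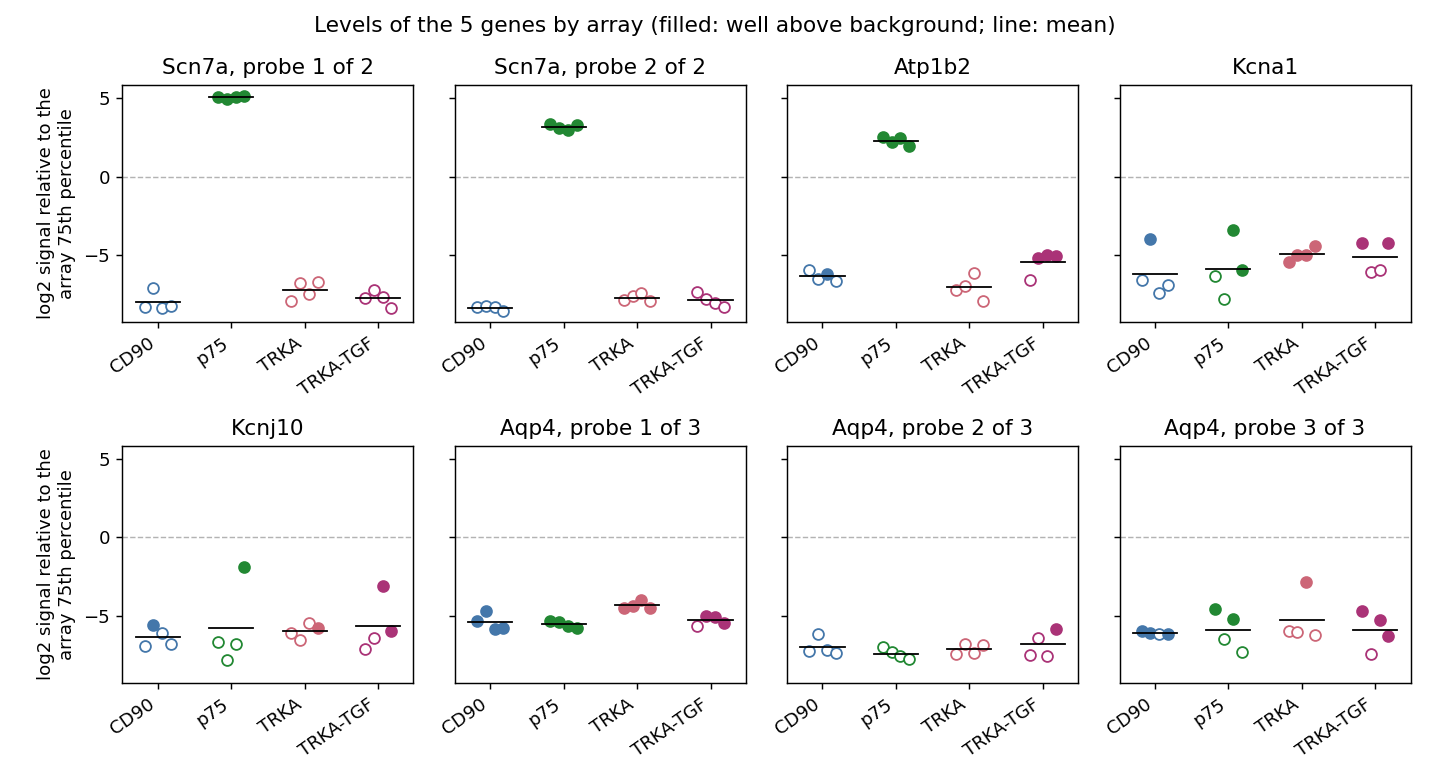
Level of each of the 8 probes on each of the 16 arrays, as log2 signal above or below the array's 75th percentile (vertical axis), by population (horizontal axis). Filled circles are well above background, open circles are not, and the line is the mean of 4 replicates. Scn7a and Atp1b2 lie above 0 in p75 cells and below -4 elsewhere, and the Kcna1, Kcnj10 and Aqp4 probes lie below -1 on every array. Aqp4 probes 1, 2 and 3 are those starting at 6630285, 6626431 and 6629662.

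Kcnj10 was near background in all populations, apart from 1 p75 and 1 TRKA-TGF array. Its level was -6.64, -7.81, -6.79 and -1.86 in p75, -7.08, -6.40, -3.12 and -5.97 in TRKA-TGF, -6.92, -5.57, -6.05 and -6.80 in CD90 and -6.08, -6.51, -5.47 and -5.74 in TRKA cells. It was above background on 5 of 16 arrays, namely p75 replicate 4, TRKA-TGF replicates 3 and 4, CD90 replicate 2 and TRKA replicate 4. On p75 replicate 4 both spots were bright, at 340 and 360, while the other 3 p75 arrays read 13.7, 6.05 and 11.2. On TRKA-TGF replicate 3 both spots were above background too, at 109 and 111, and the remaining arrays read 20.9 or less. All ranges overlapped. The difference of p75 minus TRKA was 0.17 (SE 1.35), and it ranged from -1.13 to 0.85 when single arrays were left out, the lowest without p75 replicate 4.

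Kcna1 was faint and scattered. Its level was -6.33, -7.77, -3.42 and -5.92 in p75, -6.55, -3.94, -7.38 and -6.88 in CD90, -5.42, -4.95, -4.99 and -4.40 in TRKA and -4.20, -6.03, -5.92 and -4.19 in TRKA-TGF cells. It was above background on all 4 TRKA arrays, on 2 p75 arrays, 2 TRKA-TGF arrays and 1 CD90 array. Processed signals ran from 6.21 to 116 over the 16 arrays, the highest in p75 replicate 3. No pair of populations was separated.

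Aqp4 was read by 3 probes that disagreed. The probe at 6630285, with 1 spot, was above background on 15 of 16 arrays at signals of 20.0 to 43.3. Its level was -5.31, -5.38, -5.65 and -5.76 in p75, -5.33, -4.67, -5.79 and -5.74 in CD90, -4.50, -4.37, -3.96 and -4.46 in TRKA and -5.63, -4.97, -5.03 and -5.41 in TRKA-TGF cells. On this scale TRKA lay above p75 and TRKA-TGF with no overlap. Of all genes, 31.5% did not overlap between p75 and TRKA and 26.3% between TRKA-TGF and TRKA. TRKA also lay above CD90, a pair for which no share of all genes was counted. No probe of the 5 genes separated TRKA-TGF from CD90 cells, which 28.5% of all genes did. The signals themselves lay closer together, at 35.2 to 43.3 in TRKA and 23.5 to 34.4 in p75 cells, on arrays whose median signal was 31.8 in TRKA against 202 in p75 cells. The difference of p75 minus TRKA was -1.20 (SE 0.16), and it was -2.69 after quantile normalization and -0.89 with normexp background correction.

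The other Aqp4 probes did not separate the populations. Their differences of p75 minus TRKA were -0.60 (SE 1.01) for the probe at 6629662 and -0.31 (SE 0.24) for the probe at 6626431, of the same sign, with overlapping ranges. The probe at 6629662 was above background on 9 of 16 arrays, and its brightest reading was -2.86 in TRKA replicate 3, a signal of 92.8, against -6.22 to -5.97 in the other TRKA replicates. The probe at 6626431 was above background on 1 array, TRKA-TGF replicate 4. Scn7a alone of the 5 genes passed the filter on dim probes, above background on at least 4 of 16 arrays, through p75 arrays only, and all 5 passed it.

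Promoters are shown for Scn7a and Atp1b2, the pair high in p75 cells, and for Kcnj10, which was not. They are the 250 bases before the start in RefSeq on GRCr8, read on the strand of the gene, 5′ to 3′. RefSeq entries were matched for 4 of the 5 genes. Capitals mark the GC box GGGCGG, the TATA box TATAAA and the SOX-type site ACAAAG, on either strand, and no 2 marked sites overlap. These motifs were chosen after the sequences had been seen.
Scn7a, chr3:71846285-71846534, minus strand: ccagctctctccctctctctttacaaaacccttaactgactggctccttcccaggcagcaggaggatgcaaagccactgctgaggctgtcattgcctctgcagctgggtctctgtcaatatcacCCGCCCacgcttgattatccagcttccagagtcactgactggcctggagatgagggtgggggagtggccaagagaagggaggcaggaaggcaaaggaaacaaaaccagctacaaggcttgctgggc
Atp1b2, chr10:54823709-54823958, minus strand: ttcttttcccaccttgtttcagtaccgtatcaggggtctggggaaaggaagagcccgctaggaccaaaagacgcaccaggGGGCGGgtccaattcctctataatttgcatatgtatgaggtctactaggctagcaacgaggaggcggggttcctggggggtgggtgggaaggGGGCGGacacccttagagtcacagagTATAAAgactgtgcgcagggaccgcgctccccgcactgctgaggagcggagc
Kcnj10, chr13:87334260-87334509, plus strand: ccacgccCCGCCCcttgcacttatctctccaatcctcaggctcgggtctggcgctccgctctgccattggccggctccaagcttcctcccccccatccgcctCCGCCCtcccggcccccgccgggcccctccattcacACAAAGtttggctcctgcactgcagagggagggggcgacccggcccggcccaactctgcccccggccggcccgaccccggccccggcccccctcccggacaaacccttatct
Scn7a held 1 GC box, 126 bases before the start, on the opposite strand. Atp1b2 held GC boxes 170 and 78 bases before the start and a TATA box at 52. Kcnj10 held a SOX-type site at 112 and GC boxes on the opposite strand at 243 and 148. Among 33469 rat promoters of that length, 30.5% held the GC box, 12.9% the TATA box and 16.3% the SOX-type site. The promoters shared the GC box and differed in base composition, with 56% G and C for Scn7a, 58% for Atp1b2 and 72.4% for Kcnj10, against a median of 51.2% over all.

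The genes whose pattern over the 16 arrays lay closest to each of the 5, each gene centred on its own mean, were found among 14146 others with a symbol. Closest to Scn7a were Ajap1, Ncan, which encodes the proteoglycan neurocan, and Galnt17, with root mean square differences of 1.57, 1.61 and 1.65 on the log2 scale. Closest to Atp1b2 were Pla2g5, a secreted phospholipase, Ano4 and Lrrc4c, at 0.85, 0.87 and 0.87. These 6 genes were at -0.58 to 2.05 on the p75 arrays and below -5 on all others. Closest to Kcnj10 were Prokr1, Pde1b and Cspg5, at 0.75, 0.83 and 0.88, and in p75 replicate 4 they read -1.20, -4.16 and -0.83, each the highest of the p75 arrays as Kcnj10 was. Close to Kcna1 were Tmem212 and Calml4, at 0.85 and 0.93, and closest to Aqp4 were Cdx2, Insm2 and Ptmal1, at 0.25, 0.26 and 0.27.

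The relatives and partners of the 5 genes were counted in 8 lists of 118 genes, of which 114 were on the array and 78 passed the filter. The lists leave the 5 genes out. A gene was called where limma's adjusted p, by the Benjamini-Hochberg method over all genes tested, was under 0.05. The SE of a list gene is limma's, from a spread shared by all populations. For the 5 genes it comes from the groups compared alone. Replicate spread was unequal, with a median SD per gene of 1.08 in TRKA and 0.54 in TRKA-TGF cells. In p75 against CD90 cells, 16 list genes were higher and 4 lower, 25.6% of those tested, against 7.23% of all genes (3.55% higher, 3.68% lower). In p75 against TRKA cells, 26 were higher and 14 lower, 51.3% against 35.7% of all genes (16.9% higher, 18.8% lower). That split was 24 higher and 21 lower after quantile normalization and 26 each way with normexp background correction, and the TRKA arrays had fewer spots above background. In p75 against TRKA-TGF cells, 23 were higher and 9 lower, 41.0% against 15.1% of all genes (7.14% higher, 7.96% lower). The median difference over the 78 genes was 0.07, 0.46 and 0.08, against -0.05, 0.01 and -0.14 over all genes. The lists were drawn up with earlier results of these data known, and these 3 comparisons share the p75 samples. A gene above background in p75 cells alone could pass the filter only by being high there, and 1 of the 78 did, Scn3a. Without Scn3a, 15, 25 and 22 of 77 genes were higher. Lgi2, Adam23, Sspn and Sgcd were above background on fewer than 4 arrays outside the p75 cells. They too passed the filter only with their p75 arrays, and they stay in these counts.

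**Figure D2:**
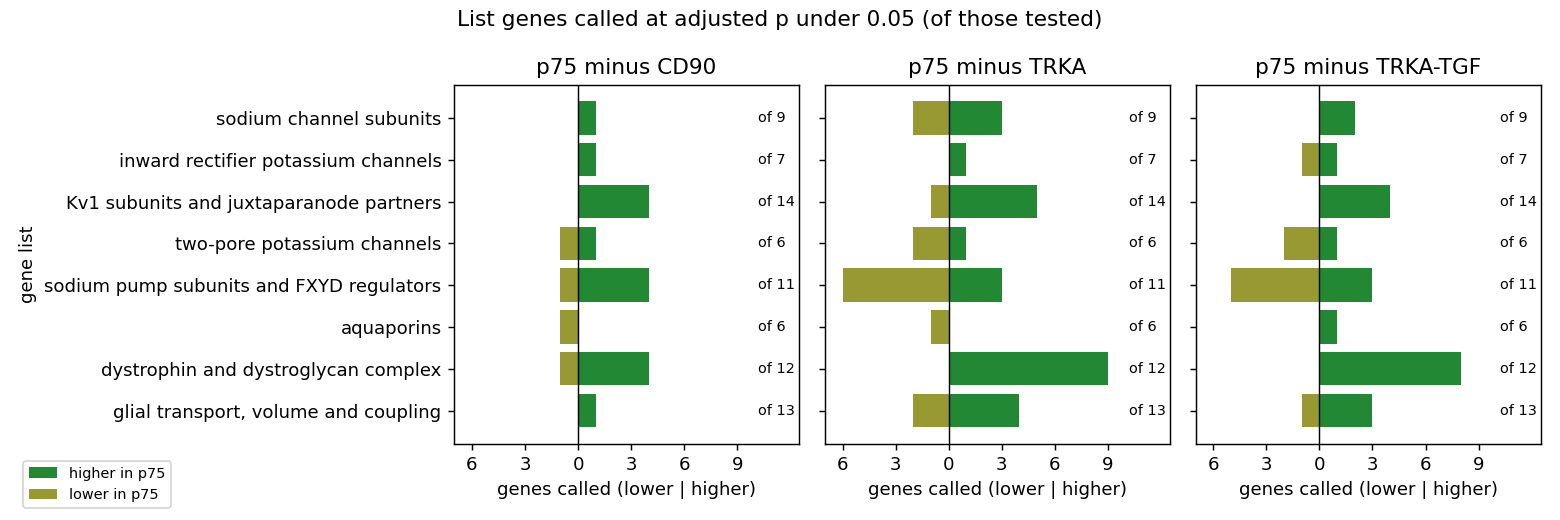
Number of list genes called lower (left of 0) and higher (right of 0) in p75 cells, by list, in p75 minus CD90, p75 minus TRKA and p75 minus TRKA-TGF; the number tested stands at the right of each row. The dystrophin and dystroglycan complex had 9 of 12 genes higher against TRKA, where 16.9% of all genes were. The sodium pump list had genes called in both directions in each comparison.

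Beside Scn7a, 1 pore-forming sodium channel was measurable in p75 cells alone. Scn3a, the Nav1.3 channel known from developing neurons, was -1.53 ± 0.87 (SD, n = 4) in p75 cells and above background on no other array. It was at least 38.8-fold higher than in CD90, 24.6-fold than in TRKA and 29.3-fold than in TRKA-TGF cells. Since it passed the filter through the p75 arrays only, it had to differ, and no p is given for it. Of 9 sodium channel genes tested, 1 was higher against CD90, 3 higher and 2 lower against TRKA, and 2 higher against TRKA-TGF. Each count of higher genes includes Scn3a, the only gene of the list called against CD90. Over all genes, 3.55%, 16.9% and 7.14% were higher in that order, and 18.8% were lower against TRKA. Nalcn, the sodium leak channel, was higher than in TRKA by 2.91 (SE 0.80) and than in TRKA-TGF by 2.52 (SE 0.80). Both Nalcn calls ended when its kept probes were averaged. The call against TRKA also ended after quantile normalization, with the authors' deposited table and with array weights, and that against TRKA-TGF with no detection filter and without any 1 of the 8 arrays. The differences of p75 minus TRKA were -1.58 (SE 0.47) for Scn2b and -1.19 (SE 0.41) for Scn10a, and both calls ended when only these 2 populations were fitted. The Scn10a call also ended with array weights and without p75 replicate 1, 3 or 4 or TRKA replicate 2 or 3.

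Kcnj10 itself was dim, and of its family 7 genes were tested. Kcnj12, the strong inward rectifier Kir2.2, was -0.43 ± 0.61 (SD, n = 4) in p75, -2.91 ± 0.81 in CD90, -3.20 ± 0.76 in TRKA and -4.23 ± 0.87 in TRKA-TGF cells. Its p75 level was higher by 2.48 (SE 0.54), 2.77 (SE 0.54) and 3.80 (SE 0.54) in that order, and each difference was called. Kcnj2, which encodes Kir2.1, was 0.09 ± 0.24 in TRKA-TGF and -4.65 ± 1.16 in p75 cells. Its difference, p75 minus TRKA-TGF, was -4.74 (SE 0.88, limma adjusted p = 0.0017). Kcnj2 was also higher in TRKA-TGF than in TRKA cells by 3.73 (SE 0.88). Kcnj16, which encodes the Kir4.1 partner Kir5.1, was on the array but did not pass the filter; it is named outside the naming rule, after its values were seen.

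Among Kv1 subunits and their partners at the axon, no channel subunit was called, and Lgi1, Lgi2, Lgi4 and Adam23 were higher in p75 cells in all 3 comparisons. Of 14 genes tested, 4 were higher against CD90, 5 higher and 1 lower against TRKA, and 4 higher against TRKA-TGF. In that order, 3.55%, 16.9% and 7.14% of all genes were higher, and 18.8% were lower against TRKA. Lgi4, a secreted protein of peripheral glia that acts in myelination, was 4.62 ± 0.04 (SD, n = 4) in p75 cells. Its CD90 level was -0.50 ± 0.67 and its TRKA-TGF level -2.40 ± 1.63, and it was above background on no TRKA array. Its p75 level was higher than in CD90 by 5.12 (SE 0.63), than in TRKA-TGF by 7.02 (SE 0.63) and than in TRKA at least 1742-fold (limma adjusted p = 8.7e-09). Lgi1, a relative bound by the ADAM22 and ADAM23 receptors, was higher by 7.69 (SE 0.91), 6.21 (SE 0.91) and 7.49 (SE 0.91) over CD90, TRKA and TRKA-TGF. Lgi2 was higher by 5.83 (SE 0.98) over CD90 and 5.54 (SE 0.98) over TRKA, and at least 30.1-fold over TRKA-TGF. Adam23 was 2.31 ± 0.47 in p75 cells and at least 350.4-fold higher than in TRKA and 417-fold than in TRKA-TGF cells. The Adam23 call against CD90 (5.04, SE 1.37) ended without CD90 replicate 2 or any 1 p75 array. Lgi2 and Adam23 passed the filter only with their p75 arrays and are in the counts of higher genes. Dlg4, the scaffold PSD-95, exceeded TRKA by 6.89 (SE 1.73), and Adam22 was lower with a difference of -1.55 (SE 0.47), both calls ending when only these 2 populations were fitted and that of Adam22 also without TRKA replicate 2.

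Two-pore potassium channels, which carry leak current, moved both ways. Kcnk5 was 0.03 ± 1.00 (SD, n = 4) in p75 cells and higher than in CD90 by 3.74 (SE 0.85), than in TRKA at least 72.0-fold and than in TRKA-TGF by 6.48 (SE 0.85). The call against CD90 ended when only these 2 populations were fitted. Kcnk6 was -1.32 ± 1.24 in p75, 2.56 ± 0.16 in CD90, 3.12 ± 0.71 in TRKA and 2.59 ± 0.25 in TRKA-TGF cells. Its differences, p75 minus each, were -3.88 (SE 0.51), -4.44 (SE 0.51) and -3.91 (SE 0.51), all called. Kcnk2, or TREK-1, fell by 2.08 (SE 0.68) from TRKA and by 3.03 (SE 0.68) from TRKA-TGF to p75 cells, and the first of these calls ended with array weights, when only the 2 populations were fitted, and without TRKA replicate 1 or p75 replicate 3 or 4. Another Kcnk2 probe was bright in CD90 cells alone, at a mean of 0.49 against -6.20 in p75, -5.37 in TRKA and -5.91 in TRKA-TGF cells. Of 6 genes tested, 1 was higher in each comparison, and 1 was lower against CD90 and 2 against TRKA and TRKA-TGF. Against CD90, TRKA and TRKA-TGF, 3.55%, 16.9% and 7.14% of all genes were higher and 3.68%, 18.8% and 7.96% lower.

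The sodium pump list showed the other β subunits lower, or not called, where Atp1b2 was high. Atp1b1, the widespread β1 subunit, was -3.11 ± 1.01 (SD, n = 4) in p75, -2.13 ± 0.26 in CD90, -0.34 ± 1.29 in TRKA and 1.97 ± 0.33 in TRKA-TGF cells. The difference of p75 was -2.77 (SE 0.59, limma adjusted p = 0.0021) from TRKA and -5.08 (SE 0.59, 3.2e-05) from TRKA-TGF, and was not called from CD90 (-0.98, SE 0.59). Atp1b3, the β3 subunit, is given outside the naming rule, after its values were seen, as a relative of Atp1b2. It was bright in all populations, at 4.42 ± 0.10 in p75 cells. The difference of p75 was -1.07 (SE 0.21) from TRKA and -0.79 (SE 0.21) from TRKA-TGF. The call against TRKA ended after quantile normalization and with the authors' deposited table.

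The FXYD proteins, small membrane regulators of the pump, included the largest differences of the list. Fxyd1, or phospholemman, was 4.91 ± 0.20 (SD, n = 4) in p75, -0.92 ± 1.31 in CD90, -5.53 ± 0.62 in TRKA and -4.70 ± 2.49 in TRKA-TGF cells. Fxyd1 exceeded them by 5.83, 10.44 and 9.61 (SE 0.98 each). Fxyd3 was 4.20 ± 0.23 in p75 cells and higher by 8.67, 9.64 and 7.86 (SE 1.51 each). A second Fxyd3 probe, above background on all 16 arrays, was also highest in p75 and lowest in TRKA cells, with far smaller differences. Its means were -1.82 in p75, -2.47 in CD90, -3.79 in TRKA and -3.27 in TRKA-TGF cells. CD90 and TRKA-TGF cells changed places between the probes. Fxyd7, known from brain, was 1.70 ± 0.40 in p75 cells and higher by 3.43, 3.57 and 3.35 (SE 0.36 each). Fxyd2, the γ subunit known from kidney, went the other way, at -4.26 ± 1.61 in p75, 0.54 ± 0.61 in CD90, 5.39 ± 0.14 in TRKA and 5.24 ± 0.30 in TRKA-TGF cells, with differences of -4.80, -9.65 and -9.50 (SE 0.61 each). All these differences were called. Of 11 genes tested, 4 were higher and 1 lower against CD90, 3 and 6 against TRKA, and 3 and 5 against TRKA-TGF. The shares of all genes were 3.55% and 3.68%, 16.9% and 18.8%, and 7.14% and 7.96% in that order. Myeloid markers were summed at 8.25 to 8.70 in TRKA and 7.26 to 7.33 in TRKA-TGF cells, where Fxyd2 was high, and their part in its level was not tested.

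**Figure D3:**
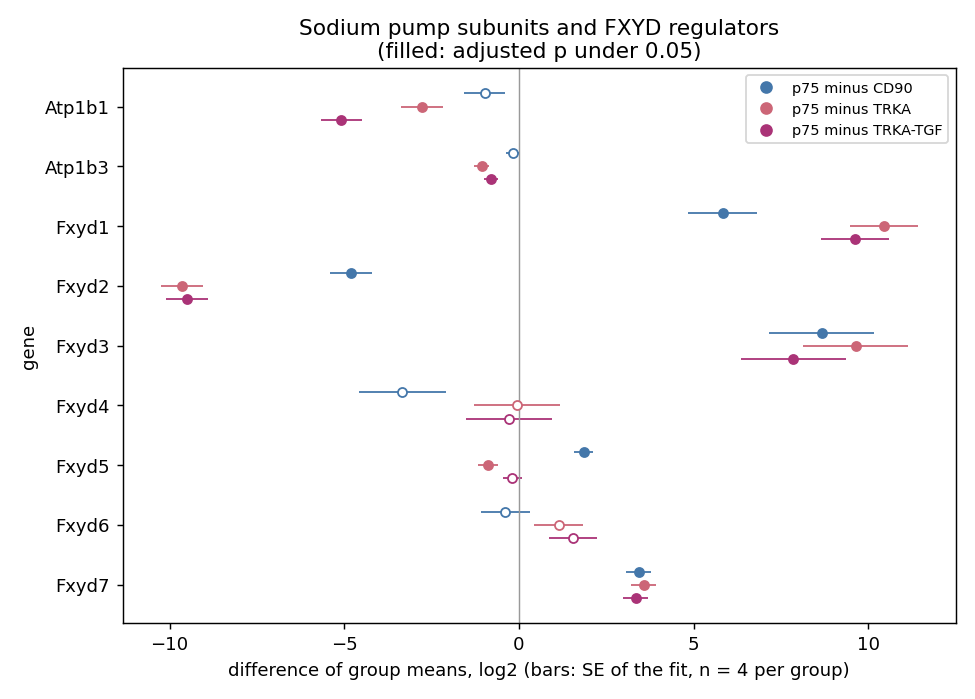
Difference of p75 from each other population (horizontal axis, log2) for 9 of the 11 tested genes of the sodium pump list (vertical axis), with bars for the standard error of the fit and n = 4 per group. Filled points were called at limma adjusted p under 0.05. Fxyd1, Fxyd3 and Fxyd7 lie right of 0 in all 3 comparisons and Fxyd2 left of it. Points use measured signals, also where a population was not above background.

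Of 6 aquaporins tested beside Aqp4, 1 was lower against CD90, 1 lower against TRKA and 1 higher against TRKA-TGF, where 3.68%, 18.8% and 7.14% of all genes were. Aqp1, a water channel of vessels and epithelia, was 5.33 ± 0.10 (SD, n = 4) in CD90, 1.17 ± 0.87 in p75, 2.14 ± 1.22 in TRKA and -3.32 ± 3.02 in TRKA-TGF cells. The difference of p75 was -4.16 from CD90 (SE 1.14, limma adjusted p = 0.0408), a call that ended without any 1 of the 8 arrays, and 4.49 from TRKA-TGF (SE 1.14, 0.0144), a call that ended when only these 2 populations were fitted. Aqp8 fell by 1.80 (SE 0.40) from TRKA to p75 cells.

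The dystrophin and dystroglycan complex, which anchors Aqp4 and Kir4.1 in glia, was called higher in p75 cells for most of its genes against both TRKA populations, while both channels were dim. Of 12 genes tested, 4 were higher and 1 lower against CD90, 9 higher against TRKA and 8 higher against TRKA-TGF. Among all genes, 3.55% were higher and 3.68% lower against CD90, 16.9% higher against TRKA and 7.14% higher against TRKA-TGF. The median difference of the 12 was 1.59, 4.40 and 3.19. Dmd, the dystrophin gene itself, was 0.91 ± 0.92 (SD, n = 4) in p75 cells and higher by 4.99, 5.17 and 4.29 (SE 0.82 each). A second Dmd probe was also highest in p75 cells, at a mean of -1.60 against -7.16 in CD90, and the remaining one was near the floor everywhere. Sntb1, the adaptor β1-syntrophin, was 1.62 ± 0.28 in p75 cells, higher than in CD90 by 6.06 and than in TRKA-TGF by 4.32 (SE 1.10 each), and at least 218-fold higher than in TRKA.

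Sgce, one of the sarcoglycans, which brace the complex in the membrane, was 2.47 ± 0.33 (SD, n = 4) in p75 cells, at least 392-fold higher than in TRKA and higher than in TRKA-TGF by 5.40 (SE 0.65). Its difference of 2.60 from CD90 (SE 0.65) lost its call without p75 replicate 2, 3 or 4 or CD90 replicate 2 or 4. Sspn, or sarcospan, was at least 179-fold higher than in TRKA and 204-fold than in TRKA-TGF, and Sgcd at least 57.1-fold and 68.0-fold. Both passed the filter only with their p75 arrays and are in the counts of higher genes. The Sgcd call against CD90 (3.92, SE 1.10) ended after quantile normalization, with the authors' deposited table, with no detection filter, in the fit of these 2 populations, and without any 1 p75 array or CD90 replicate 2, 3 or 4. Smooth muscle markers, whose cells also use this complex, had summed levels of 6.71 to 6.88 in CD90, 4.30 to 4.67 in p75, 0.70 to 3.30 in TRKA and 0.24 to 2.56 in TRKA-TGF cells, and their part was not tested. In sorted bulk samples, fewer cells of a type and less RNA per cell cannot be told apart.

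**Figure D4:**
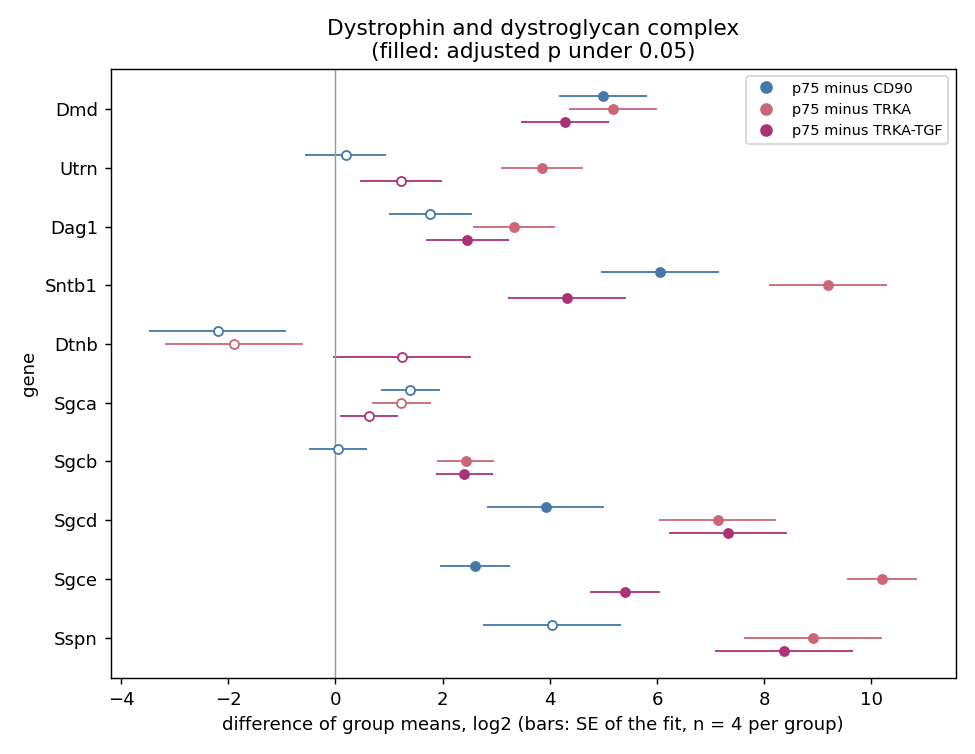
Difference of p75 from each other population (horizontal axis, log2) for 10 of the 12 tested genes of the dystrophin and dystroglycan complex (vertical axis), with bars for the standard error of the fit and n = 4 per group. Filled points were called at limma adjusted p under 0.05. Dmd, Sntb1, Sgcd and Sgce lie right of 0 in all 3 comparisons. Points use measured signals, also where a population was not above background.

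Genes that work beside Aqp4 and Kir4.1 in glial uptake and coupling were mixed. Slc1a3, the glutamate transporter GLAST, was -0.46 ± 0.61 (SD, n = 4) in p75 cells by its brightest probe. It was at least 51.4-fold higher than in TRKA, where that probe was above background on no array, and higher than in TRKA-TGF by 3.29 (SE 0.65), but was not called against CD90 (-1.29, SE 0.65). The call against TRKA-TGF ended when kept probes were averaged, the second probe being near the floor in every population. Glul, or glutamine synthetase, was higher than in CD90 by 1.89 (SE 0.26) and fell by 2.34 (SE 0.26) from TRKA and by 1.46 (SE 0.26) from TRKA-TGF. Slc4a4, a sodium bicarbonate cotransporter, exceeded TRKA by 5.65 and TRKA-TGF by 5.92 (SE 1.20 each). Gja1, or connexin 43, was at least 30.9-fold higher than in TRKA-TGF cells. Its p75 levels, -2.30 to -0.32, lay below the CD90 levels of 0.13 to 0.73. TRKA replicates 2 and 4 read -0.88 and -1.52, within the p75 range, and the other TRKA replicates were not above background. Lrrc8a, a volume-regulated anion channel subunit, had a difference of -1.50 (SE 0.43) from TRKA, and Clcn2 exceeded TRKA by 4.97 (SE 1.76), and neither call held when only these 2 populations were fitted. The Lrrc8a call also ended after quantile normalization and with the authors' deposited table, and the Clcn2 call with array weights and without any 1 p75 array or TRKA replicate 1, 2 or 3. Of 13 genes tested, 1 was higher against CD90, 4 higher and 2 lower against TRKA, and 3 higher and 1 lower against TRKA-TGF. Among all genes, 3.55% were higher against CD90, 16.9% higher and 18.8% lower against TRKA, and 7.14% higher and 7.96% lower against TRKA-TGF.

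TRKA-TGF cells were also set against TRKA cells, the populations with and without TGF-a induction, which lay on different slides, so that slide and induction cannot be told apart. Against TRKA, 9 of 78 genes were higher and 2 lower, 14.1% against 26.2% of all genes (13.4% higher, 12.9% lower). Those higher included Lgi4 at least 13.4-fold, Sntb1 at least 10.9-fold, Sgce at least 9.28-fold and Atp1b1 by 2.31 (SE 0.59), and Aqp1 fell by 5.46 (SE 1.14). The count turned on the scaling: after quantile normalization, 9 were higher and 15 lower. Over all genes, 50.9% of calls were higher, against 39.8% after quantile normalization. Against CD90, 7 list genes were higher and 12 lower, 24.4% against 14.9% of all genes (7.72% higher, 7.18% lower), and 12 were called without TRKA-TGF replicate 1. Scn7a was above background on no array of these 3 populations, and Kcnj10 overlapped among them.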

How the data were processed

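Single-colour Cy3 Agilent rat arrays were hybridised with amplified RNA, per the labels' protocols. The deposited scanner files hold linear intensity per spot, per the file headers; these name Agilent Feature Extraction 10.7.3.1, the submitters' processing notes 10.5. The authors also deposited log2 values; set against the scanner files, these are quantile-normalized and centred on each probe's median (r at least 0.9985), with column medians of -0.03 to 0.19, and were used as an alternative.

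Control and outlier spots were left out, spots of a probe averaged, and log2 of the processed signal set relative to each array's 75th percentile. Probes (30367) were named by accession (18355), by symbol (3182) or as in the file (8830). Probes above background on at least 4 of 16 arrays were kept, and the brightest by mean stood for a gene, giving 20572. No spot was saturated. limma 3.58.1 in R 4.3.3 (with the package data.table, version 1.17.8) was fitted to all arrays with 1 mean per population, tested on simulated data. The 5 genes, lists and comparisons were chosen with earlier results of these data known. The text names the 5 genes, at most 3 called genes per list, p75 comparison and direction, and 3 closest genes each; some items the rule names are not reported here. The number of arrays limits precision. Alternatives were another scaling, background correction, filter, probe rule or fit, and leaving out each array.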

Additional observations from a re-analysis of the deposited data

Results flagged for a closer look

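Of 32 groups of 4 replicates, 8 probes in 4 populations, 3 had 1 array standing far from the other replicates by Dixon's test, where chance gives about 1 in 20. Scn7a in CD90 replicate 2 was -7.102 against -8.20 in the nearest replicate, and neither was above background. Atp1b2 in TRKA-TGF replicate 1 was -6.585, not above background, against -5.17 in the nearest replicate. Aqp4, by the probe at 6629662, was -2.859 in TRKA replicate 3, above background, against -5.97 in the nearest replicate, with both spots bright.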

How the results depend on the processing

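The list counts under 9 other settings and on leaving out single arrays kept within 1.5 times the main count in 82 of 85 results. In TRKA-TGF minus TRKA the count of 11 became 24 after quantile normalization (9 higher, 15 lower) and 23 with the authors' deposited table (8 higher, 15 lower), and the cause was not tested. Leaving out single arrays gave 15 to 18 calls for p75 minus CD90 (20 with all), 35 to 42 for p75 minus TRKA (40), 29 to 31 for p75 minus TRKA-TGF (32), 9 to 15 for TRKA-TGF minus TRKA and 12 to 18 for TRKA-TGF minus CD90 (19), the 12 without TRKA-TGF replicate 1. With the replicate number as a block, the counts were 18, 42, 33, 12 and 19; same-numbered replicates did not deviate together (correlations of -0.03 to 0.04), so the numbers were not taken as pairs. In p75 minus TRKA, 47.3% of all calls were higher, against 39.6% after quantile normalization and 33.1% with normexp, as the median of all genes moved from 0.01 to -0.24 and -0.37. In TRKA-TGF minus TRKA it moved from 0.19 to -0.13 and -0.16. Differences of the 5 genes moved by more than the replicate spread in 31 of 140 results under other settings and in none of 200 on leaving out an array. Signals near background limit Kcna1, Kcnj10 and Aqp4.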
